A study of Mus musculus with 11 samples.

Results

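The transcriptome of control granule cell precursors (GCps) is described here from 2 RNA-Seq libraries of the 11 samples of the study. These 2 libraries carry the control label for RNA-Seq, and the description runs over all genes counted in them. GCps were isolated at postnatal day (P) 7 from mouse cerebella from which lobules IX and X had been removed. Cerebella of one genotype were pooled, dissociated with papain and separated on a Percoll density gradient, which enriches small dense cells and does not select on a marker. The control genotype is given as wild type and Chd7flox/+ in the sample labels, whereas the extraction notes give 2 floxed Chd7 alleles without Cre, on a C57Bl/6J background. Apart from these notes, neither the labels nor the methods state whether any control animal carried Math1-Cre, and the RNA-Seq methods name it for the mutant only. The remaining samples (Chd7 mutant RNA-Seq, ATAC-Seq and H3K4me1 ChIP-Seq) were not used here. With 2 libraries of a single group there is no contrast to test, so each level is given for both libraries as its error.

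GCps arise from the rhombic lip, cover the surface of the cerebellum as the external granule layer and divide there after birth under Sonic hedgehog released by Purkinje cells. Hedgehog signalling through Smo and the Gli factors sustains the cyclins and Mycn that drive this division, while Atoh1 keeps the cells in the precursor state. Cells that leave the cycle switch on Neurod1 and neuronal cytoskeleton genes, extend axons and migrate inwards along Bergmann glia to become granule neurons.

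The libraries held 77346481 counts in replicate 1 and 61836588 counts in replicate 2, and a count of 0 allows up to 0.0388 and 0.0485 CPM (counts divided by the library total, in parts of 1e6), respectively, for counting error only. Nothing in the sources says that the 2 libraries came from separate animals or cultures. Y-linked RNA was counted in both (Ddx3y at 68.4 and 62.1 CPM in replicates 1 and 2), while Xist, the RNA of the inactive X chromosome, was at 0.543 and 0.178 CPM. Levels below are in TPM, the count per kilobase of exon scaled to the same total in each library, and paired values are always those of replicates 1 and 2.

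The 6 genes used to check the identity of the cells were all detected well above 1 TPM, the level used here to call a gene expressed. Zic1, a zinc finger factor of the granule lineage, had 1031 and 999 TPM, a higher mean than 99.2% of expressed genes. Barhl1, a homeobox gene of the rhombic lip lineage, had 423 and 393 TPM. Pax6, a paired-box factor kept on in granule cells, reached 173 and 158 TPM. The lowest of these 3 transcription factors, Pax6, was above 92.6% of expressed genes, and both libraries gave similar levels. The proliferation marker Mki67 stood at 158 and 189 TPM. Gli1, a transcriptional target of Hedgehog signalling, was measured at 47.9 and 52.7 TPM. Atoh1, the factor that defines the precursor state, had 41.6 and 47.3 TPM, the lowest of the 6 and above 70.5% of expressed genes. Chd7, the chromatin remodeler that the study deletes in its mutants, had 80.5 and 77.3 TPM in these control cells.

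The sequences just upstream of some of these genes are shown because they are the reference promoters of the genes that mark the cells. RefSeq windows (GRCm38.p6, the first start listed for each gene, 250 bases upstream) were found for 5 of the 6 markers, and CG dinucleotides, the sites of DNA methylation, numbered 27 upstream of Zic1, 24 upstream of Mki67, 15 upstream of Pax6, 14 upstream of Atoh1 and 7 upstream of Barhl1. The windows of Zic1 (chr9:91365769-91366018, minus strand) and Barhl1 (chr2:28916669-28916918, minus strand), the most and least CG-rich of the 5, read 5′ to 3′ with each CG in capitals:
Zic1: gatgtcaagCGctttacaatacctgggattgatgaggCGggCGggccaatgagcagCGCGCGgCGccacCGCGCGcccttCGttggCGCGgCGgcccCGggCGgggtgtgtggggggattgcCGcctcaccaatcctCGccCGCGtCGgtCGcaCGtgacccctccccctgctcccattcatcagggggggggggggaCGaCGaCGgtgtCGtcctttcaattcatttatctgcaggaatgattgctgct
Barhl1: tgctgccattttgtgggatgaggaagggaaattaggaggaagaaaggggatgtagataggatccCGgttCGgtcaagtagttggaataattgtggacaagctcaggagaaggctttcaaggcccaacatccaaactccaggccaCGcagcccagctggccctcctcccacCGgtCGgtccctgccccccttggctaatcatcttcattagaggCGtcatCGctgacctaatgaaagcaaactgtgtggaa
A second feature was looked at in the cell cycle list described below. The letters CCAAT, or ATTGG for the other strand, occurred in the windows of 21 of the 27 list members with a window (77.8%, of 32 members in all), and in those of 5838 of the 16209 protein-coding genes with a window (36.0%). Windows were held for 76.4% of protein-coding genes, under the 80% needed here, so the comparison with this background is void and nothing is read from it. The motif was chosen after the data had been examined and a match to these letters is no evidence of binding. Top2a, which encodes the DNA topoisomerase of dividing cells (chr11:99024190-99024439, minus strand), had 6 matches and Mki67 (chr7:135716380-135716629, minus strand) had 3, in capitals:
Top2a: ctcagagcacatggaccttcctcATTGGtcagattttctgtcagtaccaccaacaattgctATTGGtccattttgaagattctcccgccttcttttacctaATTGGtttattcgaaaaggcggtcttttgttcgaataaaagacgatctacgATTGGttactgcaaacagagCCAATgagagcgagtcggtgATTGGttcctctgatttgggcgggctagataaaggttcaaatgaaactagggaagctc
Mki67: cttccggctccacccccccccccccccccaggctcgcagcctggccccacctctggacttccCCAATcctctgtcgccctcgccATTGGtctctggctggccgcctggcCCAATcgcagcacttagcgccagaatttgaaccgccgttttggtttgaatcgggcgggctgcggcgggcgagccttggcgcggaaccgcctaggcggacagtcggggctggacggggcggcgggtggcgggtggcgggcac

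Of the 37607 genes with a gene model, 13626 had a mean of at least 1 TPM, and together these held 99.8% of all TPM. Of the 21226 protein-coding genes, 12530 were expressed. Counts of expressed members given for families and lists are to be read against this share. A class of 113 genes at 1000 TPM or more held 30.8% of the total, the 1750 genes between 100 and 1000 TPM held 41.1% and the 7150 genes between 10 and 100 TPM held 26.0%. At the other end, 15857 genes had no count in either library.

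**Figure D1:**
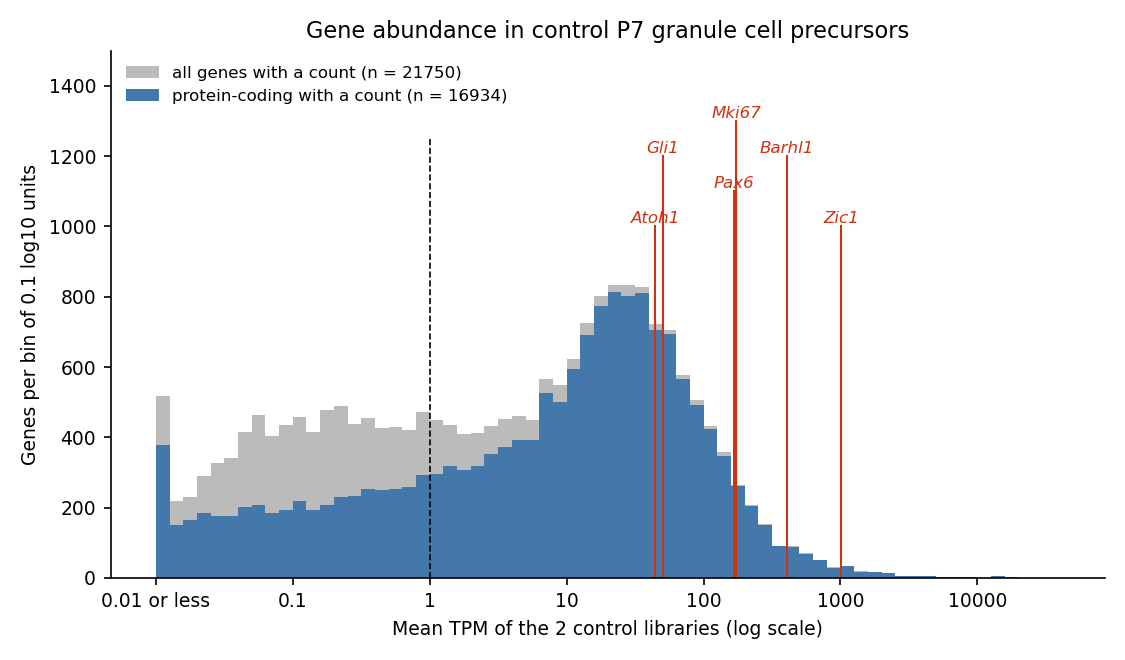
Number of genes (vertical axis) by mean TPM of the 2 control libraries (horizontal axis, log scale, bins of 0.1 log10 units), for genes with a count in either library. Grey bars are all genes and blue bars, drawn over them, protein-coding genes. The dashed line is 1 TPM and red lines give the 6 marker genes, which lie between 44.5 TPM (Atoh1) and 1015 TPM (Zic1).

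RNA of the mitochondrial genome led the ranking by TPM, with 9 of the 20 most abundant genes. The first was mt-Co3, a subunit of cytochrome c oxidase, at 14693 and 22842 TPM. All mitochondrial genes together held 8.23% of TPM in replicate 1 and 12.8% in replicate 2, so their share was the larger in replicate 2. Among nuclear genes, Eef1a1, the elongation factor that delivers tRNA to the ribosome, came first with 11615 and 13955 TPM. The α-tubulin gene of young neurons, Tuba1a, had 7920 and 9662 TPM, but 26.2% of its exonic length is shared with another gene. Ptma, a histone-binding acidic protein of dividing cells, had 7128 and 8417 TPM. The actin-binding peptide gene Tmsb4x had 6136 and 4715 TPM, higher in replicate 1, unlike the 3 genes before it. The rest of the top 20 comprised Hsp90ab1, Tubb5, Rplp1, Eef2, Actb, Calm2 and Rps15, which encode a chaperone, a β-tubulin, 2 ribosomal proteins, an elongation factor, an actin and a calmodulin. Of the 19 pairs of neighbours in this ranking, the ranges of the 2 libraries overlapped in 17, so the order within it is mostly not resolved by range. Some overlapping pairs kept their order in each library, such as mt-Co3 over mt-Co1 (12369 and 18513 TPM). Others switched, such as mt-Co2 (11398 and 17545 TPM) and mt-Atp6 (9393 and 19428 TPM).

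Without the correction for length the ranking shifted. Eef1a1 was first by CPM (8334 and 10163), and the first 10 by CPM also took in Eif4g2, a translation initiation factor with a long exonic length (10166 bases), at 2895 and 3129 CPM. The lists of the 20 most abundant genes by TPM and by CPM shared 14 genes, and those of 100 shared 62. The long Reln gene (23738 bases of exon), which encodes the secreted glycoprotein Reelin, ranked 119th by CPM (775 and 773 CPM) and 1641st by TPM (113 and 111 TPM). Cox8a, a short cytochrome oxidase subunit gene of 619 bases, ranked 1508th by CPM and 138th by TPM.

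Genes of protein synthesis and the cytoskeleton made up much of the nuclear output. Cytosolic ribosomal protein genes held 9.34% and 8.51% of TPM, with 83 of 86 at 1 TPM or more and a median of 823 TPM. Nuclear genes of oxidative phosphorylation (98 of 102 expressed) held 2.33% and 2.00%. Tubulin genes held 2.04% and 2.21%, led by Tuba1a, Tubb5 (4368 and 5048 TPM) and Tubb2b (2895 and 2057 TPM). All 20 heterogeneous nuclear ribonucleoprotein genes, which package and splice RNA, were expressed and held 1.27% and 1.14%. Of the 10 high mobility group genes, 8 were expressed, led by the nucleosome-binding Hmgn2 (1192 and 1211 TPM) and Hmgb2 (1019 and 1052 TPM). In contrast, the replication-dependent histone genes held only 0.0488% and 0.0389%, with 35 of 59 expressed. Most messages of this family lack a poly(A) tail, and whether the library preparation kept such RNA was not examined. Processed pseudogenes held 1.92% and 1.37% of TPM. These copies share sequence with ribosomal protein and other abundant genes, and reads that map equally well to several places were not counted, so levels of genes with near-identical copies (tubulins, ribosomal proteins, Eef1a1) are uncertain.

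The annotation limits what can be said of the most abundant long noncoding RNAs. Gm42418 (2867 and 1312 TPM) shares 99.5% of its exonic length with another annotated gene. Cct6a (311 and 291 TPM) encodes a chaperonin subunit and is listed as noncoding in the annotation used here. The next were 2410006H16Rik (183 and 161 TPM), Gm17750 (185 and 126 TPM) and Lhx1os, transcribed beside Lhx1 (167 and 105 TPM). In each of these 5 the level was higher in replicate 1, which was also the direction of 5535 of 9378 nuclear protein-coding genes with a mean of at least 10 CPM.

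Transcription factors were counted by family so that silent members entered the count. Of 616 genes in 36 families, 354 were expressed, close to the share over all protein-coding genes (12530 of 21226). The summed level of these families was 2.19% and 2.14% of TPM. The highest was Neurod1, a basic helix-loop-helix (bHLH) factor of granule cell differentiation, at 1325 and 1223 TPM (13.0% of exonic length shared). Next were the AP-1 genes Jun (1136 and 1020 TPM) and Fos (968 and 1113 TPM), then Zic1 and the AP-1 gene Jund (1127 and 873 TPM; 52.6% shared). Insm1, a zinc finger factor of neural progenitors that turn into neurons, had 778 and 692 TPM. Zbtb18, a transcriptional repressor of neuronal differentiation, had 531 and 512 TPM. Among the 20 highest, 11 of 19 pairs of neighbours had overlapping library ranges. Those that did not overlap included Neurod1 and the next gene Jun, and Insm1 and its neighbour on either side.

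**Figure D2:**
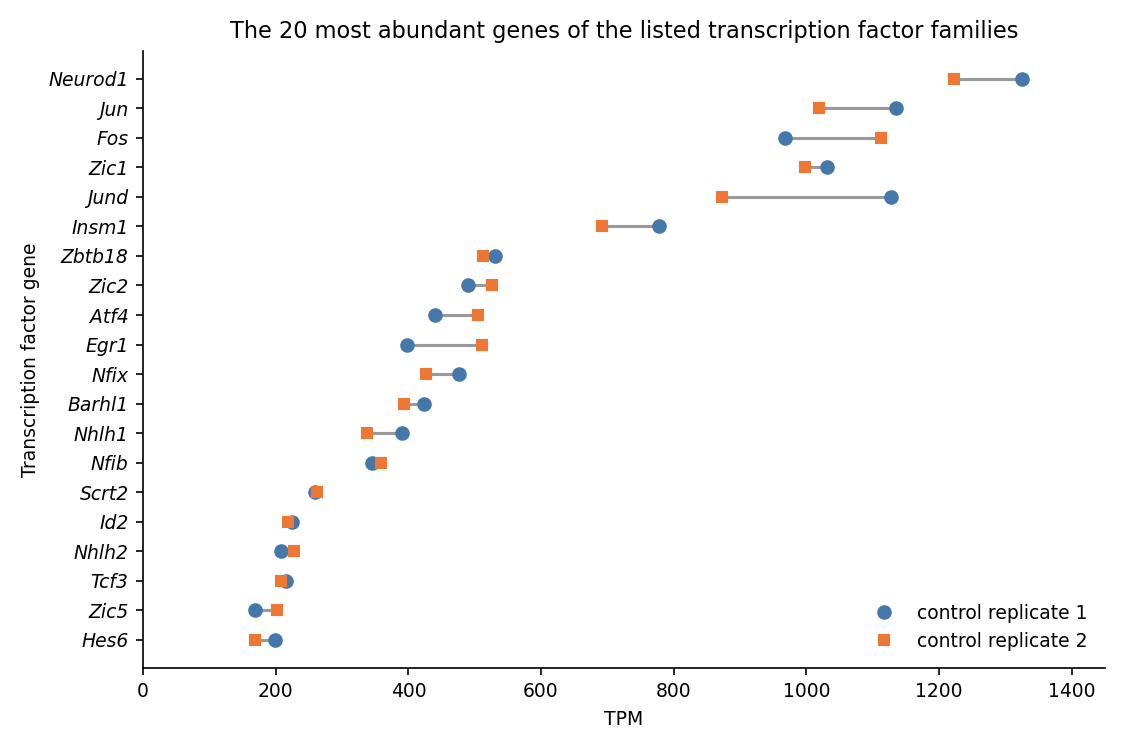
TPM (horizontal axis) of the 20 most abundant genes of the 36 transcription factor families (vertical axis), with control replicate 1 as circles, control replicate 2 as squares and a grey line between them. Neurod1 lies apart at the top, and levels go down to 169 to 199 TPM for Hes6.

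Families with known roles in cerebellar patterning and granule identity differed in how many members were expressed. Zic1 was followed in its family by Zic2 (490 and 526 TPM), Zic5 (169 and 202 TPM) and Zic4 (71.0 and 72.1 TPM). The 4 nuclear factor I genes, which act in granule cell maturation, were all expressed, with Nfix at 476 and 426 TPM, Nfib at 346 and 358 TPM, Nfia at 186 and 181 TPM and Nfic at 107 and 88.4 TPM. Barhl2 accompanied Barhl1 at 127 and 88.4 TPM, without overlap between the 2 paralogs. In the group of Otx, engrailed, Irx and related homeobox genes, 9 of 19 were expressed, led by En2, a gene of the midbrain-hindbrain region, at 91.6 and 80.7 TPM. By contrast, none of the 38 Hox genes, which pattern the hindbrain and spinal cord behind the cerebellum, reached 1 TPM, 28 had no count and the highest count of any was 3. The Dlx, Nkx, Msx, Emx and Prrx genes, many of which act in the forebrain, had 3 of 35 members expressed, at most 2.18 TPM. Of the Pax genes, Pax6, Pax3 (19.3 and 21.8 TPM) and Pax2 (15.3 and 17.7 TPM) were expressed and 6 of 9 were not.

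Among the bHLH genes (23 of 43 expressed), Neurod1 was followed by Nhlh1 (391 and 338 TPM) and Nhlh2 (208 and 228 TPM), both expressed in newly born neurons, and Bhlhe22 (205 and 152 TPM). Neurod1 RNA was 31.9 and 25.8 times that of Atoh1 in the 2 libraries. The E proteins that pair with them and the Id genes that block them were all expressed (7 of 7), led by Id2 (225 and 218 TPM) and Tcf3 (216 and 208 TPM). In the Hes and Hey family, which carries out Notch signals in many tissues, Hes6 (199 and 169 TPM) and Hey1 (165 and 176 TPM) were over 100 TPM, whereas Hes5 (14.1 and 19.0 TPM) and Hes1 (12.6 and 17.3 TPM) were much lower. Of the LIM homeobox genes, 4 of 12 were expressed, led by Lhx1 (133 and 127 TPM) and Lhx5 (35.9 and 44.4 TPM). Ebf3 (162 and 167 TPM), Cbfb (188 and 175 TPM), Sox12 (146 and 129 TPM) and Tead2 (142 and 145 TPM) were other members above 100 TPM.

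Genes of the list for immediate early and dissociation stress genes, which includes 2 heat shock genes (Hspa1a and Hspa1b), spread widely in level. All 21 had a mean of at least 1 TPM, 8 exceeded 100 TPM and the median was 46.3 TPM. Besides Jun, Fos and Jund, Ier2 (429 and 495 TPM) and Egr1 (397 and 510 TPM) were the most abundant. The lowest were Nr4a1 (6.39 and 6.67 TPM), Arc (6.02 and 7.03 TPM) and Egr3 (0.938 and 1.37 TPM). Immediate early genes respond within minutes to stimulation and to enzymatic dissociation. The cells were dissociated with papain before RNA was made, and the part of dissociation in these levels was not tested, since no undissociated library was analysed.

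Of the 20 genes of the list for precursor identity, 19 were expressed and 11 exceeded 100 TPM. After Zic1, Insm1 and Zic2, the D-type cyclin Ccnd2 had 414 and 421 TPM. The exception was Meis2, at 0.0858 and 0.138 TPM, whereas its paralog Meis1 had 81.0 and 73.3 TPM.

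The Hedgehog pathway was present from receptor to transcription factor while its ligands were not. Of 21 genes, 18 were expressed, and the 3 below 1 TPM were the ligands Ihh (0.619 and 0.472 TPM), Dhh (0.0817 and 0.0503 TPM) and Shh (0.0158 TPM in replicate 1 and no count in replicate 2). The transducer Smo had 112 and 107 TPM. Ptch1, a receptor that restrains it, had 21.4 and 25.8 TPM. Boc, a coreceptor that binds the ligand, had 82.3 and 94.7 TPM, whereas the related Cdon was at 1.00 and 1.10 TPM, a ratio of 82.2 and 86.3. A further coreceptor, Gas1, had 71.9 and 63.0 TPM. Inside the cell, the highest were Prkaca, the catalytic subunit of protein kinase A (219 and 206 TPM), and Spop, an adaptor for the degradation of Gli proteins (150 and 125 TPM). The inhibitor Sufu had 85.1 and 80.6 TPM. Of the Gli factors, Gli2 (59.6 and 66.4 TPM) and Gli1 exceeded Gli3 (9.03 and 9.94 TPM), whose product acts mainly as a repressor, and the Gli2 to Gli3 ratio was 6.60 and 6.68.

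Genes of the cell cycle were expressed without exception. All 32 exceeded 10 TPM and 22 exceeded 100 TPM, with a median of 151 TPM, and together they held 0.549% and 0.570% of TPM. Pcna, the sliding clamp of DNA replication, was highest at 575 and 533 TPM. Cdc20, an activator of the anaphase-promoting complex, had 405 and 370 TPM. Next came the S-phase and mitotic cyclin Ccna2 (293 and 360 TPM), the ribonucleotide reductase subunit Rrm2 (310 and 301 TPM) and Top2a (270 and 340 TPM). The lowest was the G1/S cyclin Ccne2 at 24.3 and 24.6 TPM. Of the 32 genes, 23 were higher in replicate 2, compared with 3843 of 9378 nuclear protein-coding genes with a mean of at least 10 CPM.

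Paralogs within the cell cycle machinery differed widely. Cdk4, the kinase partner of D-type cyclins, had 628 and 631 TPM and Cdk6 had 3.44 and 4.47 TPM, a ratio of 183 and 141. Ccnd2 exceeded Ccnd1 (108 and 136 TPM; 23.4% of exonic length shared) 3.83 and 3.09 times, and Ccnd3 had 7.70 and 7.52 TPM. Mycn, induced by Hedgehog signalling in these cells, had 145 and 160 TPM, 4.64 and 3.87 times the level of Myc. Inhibitors were expressed as well: Cdkn1b, which restrains cyclin-dependent kinases as cells leave the cycle, had 284 and 258 TPM, 16.2 and 11.9 times the level of Cdkn1a. The single member of this list below 1 TPM was Cdkn2a (0.767 and 0.756 TPM), the tumour suppressor locus.

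The genes listed for newly postmitotic granule neurons had a higher median and sum than the genes listed for precursor identity. All 24 were expressed, with a median of 159 TPM (110 TPM for the precursor list) and a sum of 0.882% and 0.841% of TPM, compared with 0.442% and 0.435% for the 20 precursor genes. The 32 cell cycle genes, a separate list, had a median of 151 TPM and held 0.549% and 0.570%. The comparison therefore depends on which lists stand for precursors. Tubb3, the neuronal β-tubulin, had 2060 and 2030 TPM and made up 23.7% of the postmitotic sum. Gap43, a growth cone protein, had 1193 and 1137 TPM. Stmn2 (583 and 612 TPM) and the axonal adhesion gene Cntn2 (678 and 506 TPM), a marker of the deeper external granule layer, followed. In bulk libraries, the share of cells that had left the cycle and the RNA level per cell cannot be told apart.

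Markers of mature granule neurons were mixed. Of 16 genes, 14 were expressed, with Cbln1, a synaptic organiser secreted by granule cells, at 240 and 213 TPM and Cadps2, a protein of dense-core vesicle release, at 165 and 149 TPM. The synaptic vesicle genes Syn1 (74.3 and 80.8 TPM), Snap25 (64.8 and 58.6 TPM) and Slc17a7 (43.2 and 31.3 TPM), the vesicular glutamate transporter, were lower. The GABA-A receptor subunits of mature granule cells were near absent: Gabra6 had 0.144 TPM in replicate 1 and no count in replicate 2, and Gabrd had 0.234 and 0.193 TPM. Related immature and mature forms were set side by side. The chloride importer Slc12a2 (32.8 and 32.0 TPM) was 83.7 and 100.1 times the exporter Slc12a5 (0.392 and 0.320 TPM), the transporter that renders GABA inhibitory in mature neurons. Among NMDA receptor subunits, Grin2b (7.31 and 6.54 TPM) was 101 and 62.3 times Grin2a (0.0726 and 0.105 TPM). The glycolytic enolase Eno1 (291 and 303 TPM) was 156 and 168 times the neuronal enolase Eno2 (1.86 and 1.80 TPM).

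Metabolic genes were expressed throughout. All 19 glycolysis genes were expressed, led by Pkm (872 and 751 TPM), Gapdh (423 and 396 TPM) and Ldhb (378 and 350 TPM). All 19 cholesterol synthesis genes were expressed too, led by Hmgcs1 (346 and 346 TPM; 12.1% shared), Mvd (259 and 212 TPM) and Cyp51 (182 and 185 TPM), the pathway whose products modify Hedgehog proteins and Smo.

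Receptor and adhesion genes were counted by family as well. Of 306 genes in 27 families, 182 were expressed, close to the share over all protein-coding genes (12530 of 21226), and 9 exceeded 100 TPM. Their median was 2.27 TPM (1.98 TPM for the 616 transcription factor genes) and their sum was 0.506% and 0.497% of TPM. The highest was Plxnb2, a receptor for class 4 semaphorins, at 607 and 600 TPM. Neo1, a netrin and repulsive guidance receptor, had 280 and 269 TPM. The adhesion receptor Adgrg1 had 260 and 285 TPM, and Itgb1, the integrin β subunit for basement membrane contact, 239 and 238 TPM. Plxnb2 stood clear of the other 3, and Neo1 and Adgrg1 overlapped. N-cadherin (Cdh2) had 133 and 135 TPM, and Cxcr4, the receptor for the meningeal chemokine Cxcl12 that holds precursors at the surface, had 92.5 and 129 TPM.

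**Figure D3:**
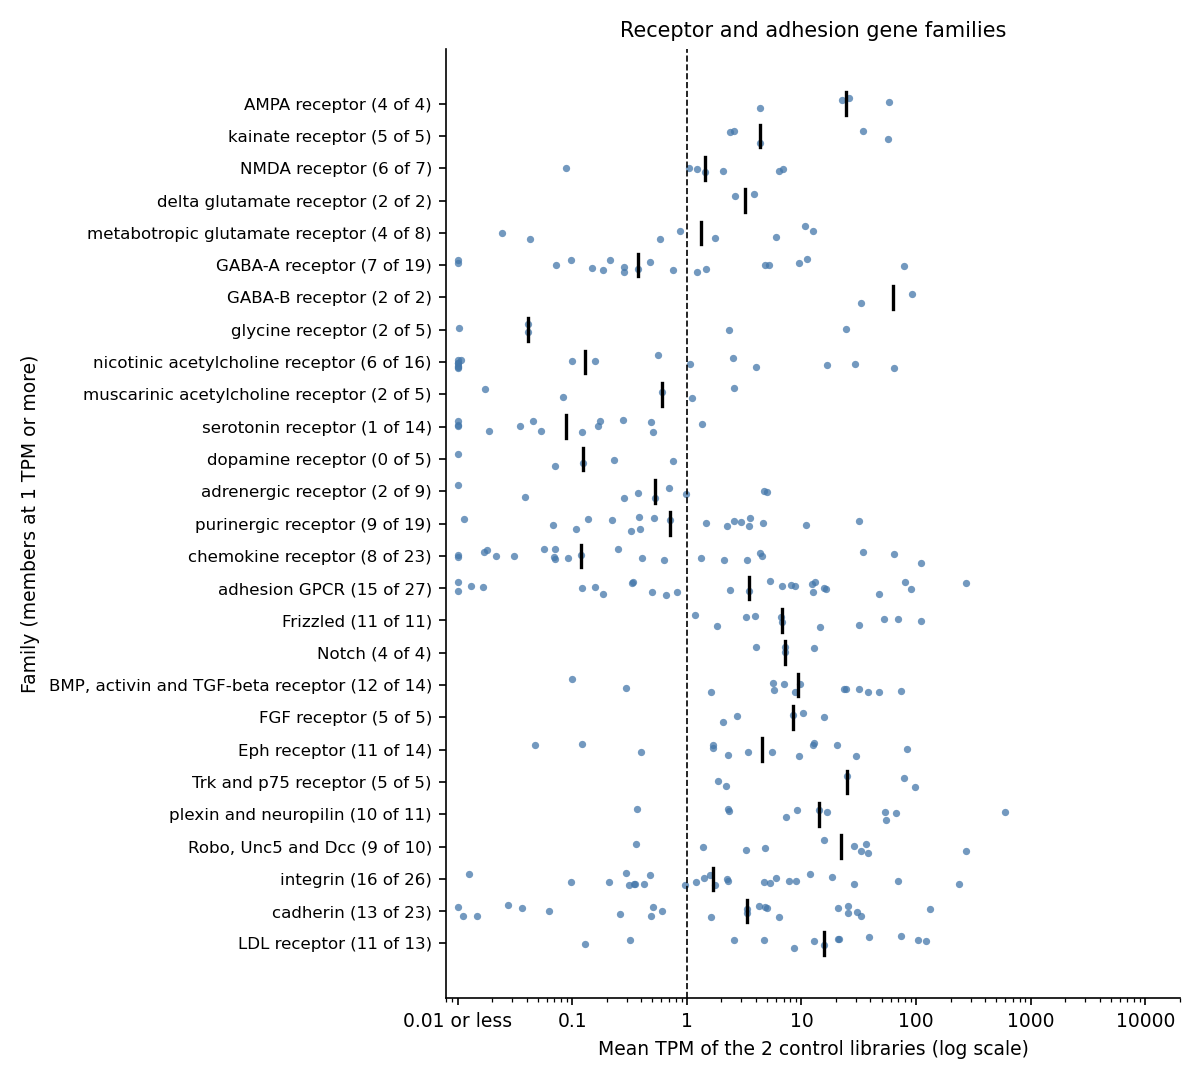
Mean TPM of the 2 control libraries (horizontal axis, log scale, values at or under 0.01 drawn at 0.01) for each gene (points) of the 27 receptor and adhesion families (vertical axis, with the number of members at 1 TPM or more of all members). Black bars are family medians and the dashed line is 1 TPM. Plxnb2 is the highest point at 603 TPM, and no dopamine receptor lies to the right of the dashed line.

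The receptor families differed in how many members were expressed. In 8 families each member was at 1 TPM or more: the AMPA, kainate, delta glutamate, GABA-B, Frizzled, Notch, FGF and Trk and p75 families. Most of these are small, with only 2 members each in the delta glutamate and GABA-B families. Of the glutamate receptors, the AMPA subunit Gria4 had 61.2 and 56.0 TPM and the kainate subunit Grik5 60.4 and 53.8 TPM, whereas the obligatory NMDA subunit Grin1 was at 2.11 and 2.01 TPM. Among the GABA receptors, the GABA-B subunit Gabbr1 (101 and 84.7 TPM) was above the GABA-A subunit Gabra4 (11.2 and 11.3 TPM) in both libraries. The nicotinic acetylcholine receptors had 6 of 16 expressed, led by Chrna3 (57.1 and 71.5 TPM), Chrnb2 (28.9 and 29.4 TPM) and Chrnb4 (13.1 and 20.4 TPM). Monoamine receptors were close to silent, with 1 of 14 serotonin receptors (Htr3a, 1.32 and 1.41 TPM), 0 of 5 dopamine receptors and 2 of 9 adrenergic receptors expressed.

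Receptors for growth factors and for neurotrophins were moderate. Sort1, which was counted here with the Trk and p75 genes without being one of them, had 99.7 and 94.4 TPM. Sort1 and the p75 receptor Ngfr (73.3 and 83.7 TPM) were higher than Ntrk2 (24.5 and 25.9 TPM), the receptor of brain-derived neurotrophic factor. Of the BMP, activin and TGF-β receptors, 12 of 14 were expressed, led by Bmpr1a (66.9 and 80.6 TPM), Tgfbr1 (47.1 and 47.5 TPM) and Acvr1b (42.0 and 34.6 TPM). All 4 Notch genes were expressed, led by Notch2 (12.6 and 13.3 TPM). So were all 11 genes counted as Frizzled, a set that here includes the Hedgehog transducer Smo. After Smo, Fzd2 (72.4 and 68.1 TPM) and Fzd7 (56.0 and 48.2 TPM) were highest. Eph receptors had 11 of 14 expressed, led by Ephb2 (83.9 and 83.3 TPM). Of 58 receptor tyrosine kinases, 46 were expressed, with Ryk (120 and 144 TPM) and Ddr1 (139 and 124 TPM) highest. Ligands were looked at in a chosen list of Notch, Wnt, BMP and FGF genes, which holds no neurotrophins or ephrins. Of these 25 genes, 15 were expressed, and their median was 1.90 TPM (2.27 TPM for all receptor and adhesion genes). Apart from the intracellular factor Fgf13 (53.2 and 52.8 TPM) the highest was Fgf9 at 13.6 and 12.5 TPM.

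Reelin pathway genes were present on both sides. Reln had 113 and 111 TPM. Its receptors Lrp8 (13.0 and 12.6 TPM) and Vldlr (4.29 and 5.05 TPM) and the adaptor Dab1 (4.16 and 5.36 TPM) were lower, whereas the kinases Fyn (163 and 142 TPM) and Src (69.2 and 59.9 TPM) and the adaptors Crk (166 and 154 TPM) and Crkl (76.1 and 78.7 TPM), which serve many pathways, were high. Vldlr and Dab1 overlapped in level, and both lay below the range of Lrp8.

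Chromatin regulators were expressed almost completely, with 95 of 98 at 1 TPM or more, compared with 12530 of all 21226 protein-coding genes. In the CHD remodeler family (8 of 9 expressed), Chd4 of the NuRD complex was highest at 308 and 289 TPM, 3.82 and 3.74 times Chd7. Chd7 was above Chd3 (79.1 and 57.2 TPM) in each library, although their ranges overlapped. All 17 SWI/SNF and ISWI genes were expressed, led by the ATPase Smarca4 (278 and 290 TPM). The histone deacetylase Hdac2 (310 and 325 TPM) was 2.65 and 3.24 times Hdac1, and Ezh2, the Polycomb methyltransferase of dividing cells, was 8.47 and 9.48 times Ezh1. Uhrf1 (257 and 256 TPM) and Dnmt1 (158 and 158 TPM), which maintain DNA methylation at replication, exceeded Dnmt3a (16.9 and 16.0 TPM) and Dnmt3b (9.32 and 8.62 TPM), which establish it.

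RNA of cells other than granule precursors was looked for with 12 lists of markers, since the gradient does not select on a marker. Of 147 matched genes (150 listed, 3 erythroid genes not matched), 120 were expressed and 27 were not, and of the 37 defining markers 30 were expressed and 7 were not. Their summed levels were 0.457% and 0.403% of TPM. Of the 147 genes, 11 also stand in another list used here, 2 of them in a granule or Hedgehog list (Calb2 and Shh).

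The Purkinje cell list was divided. The 4 defining markers Pcp2 (0.369 and 0.0908 TPM), Calb1 (0.779 and 0.777 TPM), Car8 (0.769 and 0.848 TPM) and Skor2 (0.0143 TPM and no count) were all below 1 TPM, whereas 8 of 15 list members were expressed, led by Lhx1 (133 and 127 TPM), Dner (110 and 108 TPM) and Lhx5 (35.9 and 44.4 TPM). For GABAergic interneurons, all 11 markers were expressed at a median of 7.13 TPM, with Pax2, Gad1 (5.70 and 6.91 TPM) and Slc32a1 (6.52 and 7.74 TPM) present. Of the markers of unipolar brush cells and nuclear neurons, Eomes (40.9 and 40.1 TPM) and Otx2 (54.5 and 60.9 TPM) were expressed and Lmx1a (0.159 and 0.261 TPM) was not.

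Glial and microglial markers were expressed as well. Of 18 genes of Bergmann glia and astrocytes, 17 were expressed at a median of 45.7 TPM, led by the lipid carrier Apoe (583 and 360 TPM), the radial glial lipid-binding protein Fabp7 (493 and 418 TPM), Sparcl1 (442 and 461 TPM) and the glutamate transporter Slc1a3 (124 and 150 TPM). The defining markers Aqp4 (84.0 and 86.8 TPM), Gfap (54.0 and 47.8 TPM) and Gdf10 (44.4 and 48.1 TPM) were all expressed. All 14 markers of microglia and macrophages were expressed at a median of 53.2 TPM, among them the complement genes C1qa (108 and 91.0 TPM) and C1qb (104 and 92.9 TPM), Csf1r (50.2 and 39.0 TPM), Cx3cr1 (36.7 and 31.9 TPM) and P2ry12 (33.6 and 29.7 TPM). The 13 oligodendrocyte markers were expressed at a median of 5.43 TPM, with Mbp (58.4 and 50.6 TPM) and the precursor receptor Pdgfra (46.7 and 48.6 TPM) highest and Olig2 (3.62 and 4.44 TPM) and Sox10 (1.96 and 1.42 TPM) low.

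Vascular markers were all expressed, with medians of 9.82 TPM for 15 endothelial genes and 5.94 TPM for 10 mural genes. Cldn5, a tight junction gene, had 207 and 153 TPM and made up 52.9% of the endothelial sum. Pecam1 (14.9 and 14.1 TPM) and Cdh5 (25.9 and 24.9 TPM) were lower. Rgs5 led the mural list at 83.6 and 73.8 TPM and Pdgfrb had 8.39 and 8.10 TPM. Haemoglobin genes were expressed too, with Hbb-bs at 65.5 and 41.6 TPM and Hba-a1, which shares sequence with Hba-a2, at 31.4 and 29.5 TPM. Alas2, the erythroid enzyme of haem synthesis, had 2.90 and 1.66 TPM. Of 13 meningeal markers 10 were expressed, led by Islr (42.1 and 53.2 TPM, 44.1% of the sum), Igf2 (16.6 and 18.2 TPM) and Cxcl12 (17.3 and 15.7 TPM). The defining markers were lower, with Dcn at 1.66 and 2.29 TPM, Col1a1 at 7.56 and 3.31 TPM and Lum at 1.36 and 1.40 TPM. Choroid plexus and ependymal markers (6 of 10 expressed) were led by Ttr at 51.9 and 7.42 TPM, and Kl had 0.279 and 0.190 TPM. Skeletal muscle genes were lowest by median, with 4 of 12 expressed and at most 3.73 TPM, including Acta1 (2.92 and 1.51 TPM), Myh3 (1.69 and 1.09 TPM) and Ckm (0.139 and 0.0570 TPM). In these bulk libraries, a few cells of another type and a low level in many granule cells cannot be told apart, and the part of either in the levels of these markers was not tested.

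**Figure D4:**
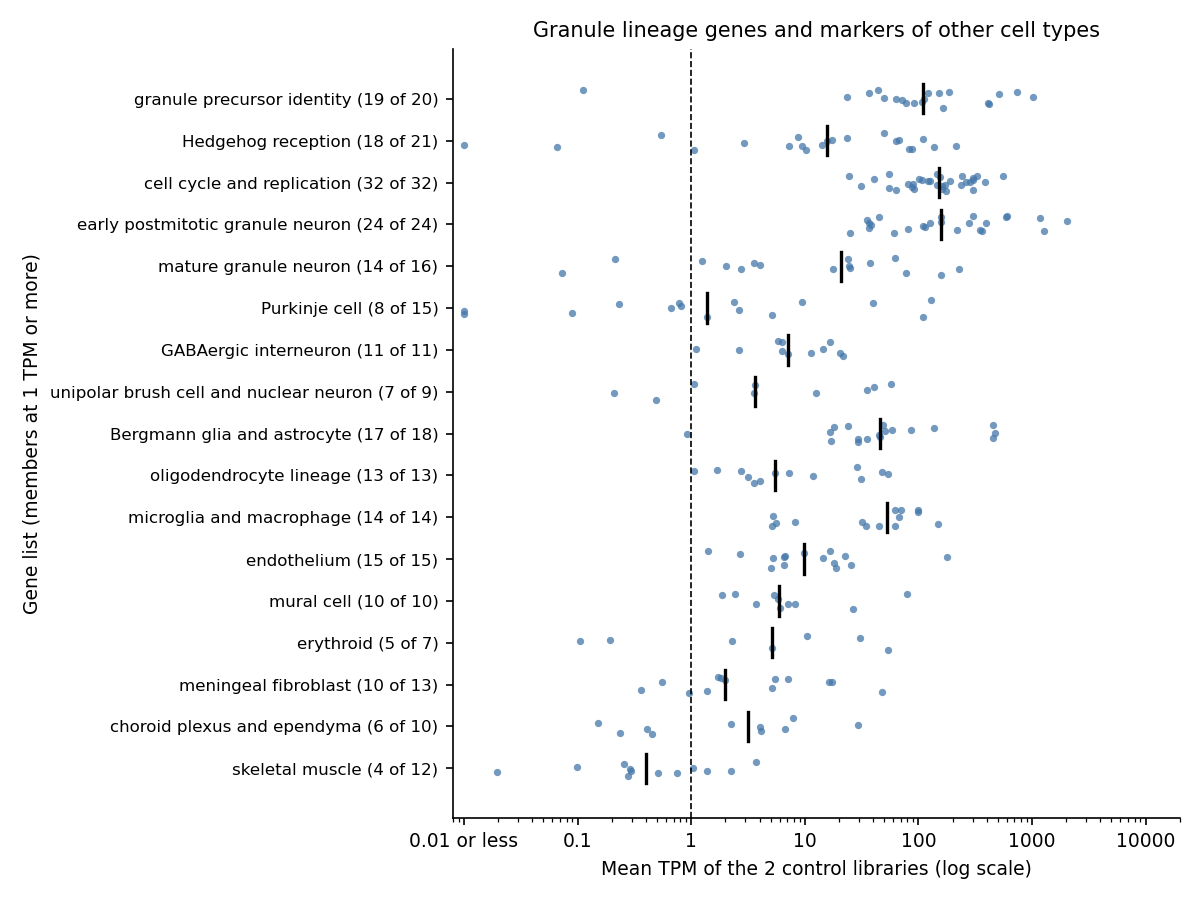
Mean TPM of the 2 control libraries (horizontal axis, log scale, values at or under 0.01 drawn at 0.01) for each gene (points) of the granule lineage lists and of the 12 lists for other cell types (vertical axis, with members at 1 TPM or more of all matched members). Black bars are list medians and the dashed line is 1 TPM. The cell cycle and early postmitotic lists lie wholly to the right of the line, with medians of 151 and 159 TPM, and the muscle list has a median of 0.403 TPM.

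The 2 libraries were close for most genes. Over 9390 protein-coding genes with a mean of at least 10 CPM, 98.5% differed by less than 1.5-fold. Pearson's r of log2 TPM was 0.993 and Spearman's rho 0.992 across these genes, which are not independent replicates. The common biological coefficient of variation, the relative spread beyond counting error estimated by edgeR, was 12.5% over 15816 genes. Per gene, the chi-square statistic of the counts averaged 51.2 over 16056 genes, and the totals differed, so the files were not copies of 1 library.

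In all, 24 of the 9390 genes differed by more than 2-fold, 6 higher in replicate 2 and 18 higher in replicate 1. Those highest in replicate 2 relative to replicate 1 were Cxcl14, a chemokine (11.1 and 65.9 TPM), Cwc22, a splicing factor (18.6 and 73.7 TPM), Kif13a, a kinesin (8.57 and 27.4 TPM), mt-Nd6 and mt-Atp6. The opposite extreme held Ttr, Gm11808 (116 and 23.3 TPM), Pop4 (87.0 and 26.6 TPM), Tdg (139 and 46.1 TPM) and Gm10282 (140 and 52.6 TPM). Whole groups also differed between the libraries. Of the 13 protein-coding mitochondrial genes, 12 were higher in replicate 2, with a median log2 ratio of 0.64. Of the 147 markers of other cells, 98 were higher in replicate 1 and 49 in replicate 2, compared with 5535 and 3843 of the 9378 nuclear protein-coding genes with a mean of at least 10 CPM. The lists differed in direction. In replicate 1, 12 of 14 microglial, 14 of 15 endothelial and 7 of 7 erythroid genes were higher, with median log2 ratios of replicate 2 over replicate 1 of -0.21, -0.22 and -0.56. Markers of GABAergic interneurons were mostly higher in replicate 2 (9 of 11, median log2 ratio 0.20). The lists of unipolar brush cells and nuclear neurons (5 of 9 higher in replicate 2) and of Bergmann glia and astrocytes (10 of 18) were near even. Their median log2 ratios were 0.12 and 0.02, and their summed TPM was higher in replicate 1 (161 and 150, and 2138 and 1903). Most genes of each other list were higher in replicate 1. These were 8 of 13 oligodendrocyte, 8 of 10 mural, 8 of 13 meningeal, 9 of 10 choroid plexus and ependymal, 9 of 12 muscle and 9 of 15 Purkinje cell genes. Among the 9378 nuclear genes, 59.0% were higher in replicate 1. The oligodendrocyte, meningeal and Purkinje cell counts lie near that share, so nothing is read from them. Unlike those nuclear genes, the marker lists have no minimum of 10 CPM and hold genes with few reads. Replicate 2 was also the library with the larger mitochondrial share (12.8% of TPM, and 8.23% in replicate 1). Since TPM has the same total in each library, a larger mitochondrial share by itself lowers the TPM of nuclear genes. The part of this in the directions given above was not tested. Whether the cell mixture or the preparation differed between the pools cannot be told apart here.

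**Figure D5:**
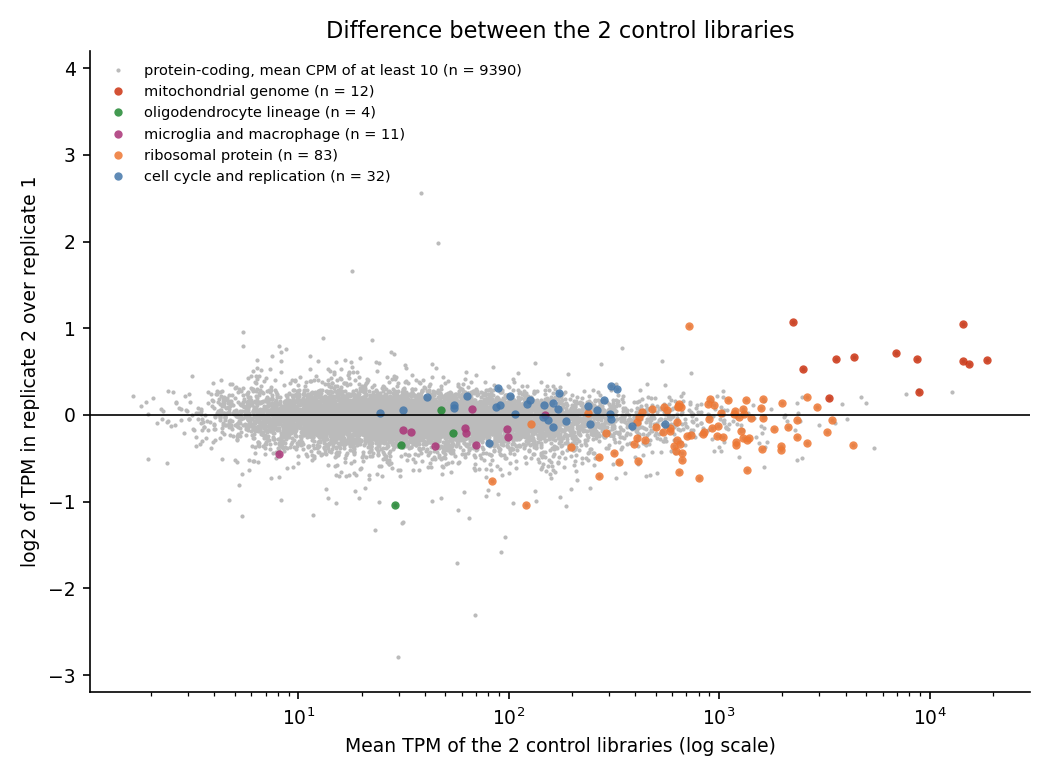
Log2 ratio of TPM in control replicate 2 over control replicate 1 (vertical axis, 0.1 added to each) against mean TPM (horizontal axis, log scale) for the 9390 protein-coding genes with a mean of at least 10 CPM (grey) and for 5 gene groups (colours). Mitochondrial genes lie above 0 and most microglial genes below it.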

How the data were processed

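RNA-Seq counts of 2 control libraries of P7 GCps were analysed. The authors deposited raw counts, whole numbers of reads for each Ensembl gene, in 1 file per library. According to the methods and the submitters' processing notes, reads were trimmed with Trim Galore 0.4.1, aligned to mm10 with TopHat2 2.0.14 and counted per Ensembl 75 gene with HTSeq 0.6.1p1 (intersection-strict, alignment quality of at least 3). No source used here states a strand setting for the counting, so genes that overlap others on the opposite strand are uncertain, and reads that map to several places were not counted. Names, coordinates and exon lengths came from GENCODE vM21 on GRCm38 for 37607 of 38924 genes. The 1317 others (0.211% and 0.205% of counts) stayed in the totals for CPM and were left out of TPM. TPM used the union of annotated exons, which understates genes that use few of their exons. A gene was called expressed at a mean of 1 TPM. The spread between libraries was estimated with edgeR 4.0.16 (TMM, intercept only) in R 4.3.3, and the steps were tested on simulated data. Log2 ratios between libraries used a pseudocount of 0.1 TPM.

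No test between groups was made, since 1 group was described. The genes, lists and families were chosen with earlier results of these data known. Named genes were the 6 markers and Chd7, the most abundant 20 by TPM and 10 by CPM, the 20 most abundant transcription factors, up to 4 genes per described transcription factor family, 3 per receptor family and 5 per list, the defining markers of other cell types, the 5 highest long noncoding RNAs and the 5 largest differences between libraries in each direction. Other genes, ratios of related genes, lowest members and the promoter motif were chosen after their values were seen. Families were defined by symbol. Some genes that this rule names are not reported here. Alternatives were exon length, totals, thresholds, overlapping genes, scaling (including DESeq2 1.42.0 size factors) and each library alone. Promoter windows came from RefSeq on GRCm38.p6, matched by symbol for 16209 of 21213 nuclear protein-coding genes, and sets with windows for fewer than 80% of their members were not described, apart from the share of all protein-coding genes given beside the CCAAT count.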

Additional observations from a re-analysis of the deposited data

How the results depend on the processing

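The counts of expressed genes and the share of TPM were recomputed under up to 9 alternatives and the spread between libraries under 3, which gave 45 values. Of these, 41 lay within 1.5-fold of the main value or, for the share of TPM, within the standard deviation between the 2 libraries. For that share, each library alone always falls within this limit, so those values are no check. The 100 most abundant genes held 29.5% of TPM, but 16.5% of CPM without length correction and 22.8% when mitochondrial genes were left out of the total. At a threshold of 5 TPM, 111 receptor genes remained above it, compared with 182 at 1 TPM. Among genes without exonic overlap with another gene, 231 transcription factor genes were expressed, compared with 354, since fewer genes were counted. With either library alone, the ranges were 13576 to 13691 expressed genes, 27.6% to 31.4% of TPM in the 100 most abundant genes, 347 to 350 transcription factor genes, 182 to 183 receptor genes and 118 to 121 markers of other cells. No paired analysis was possible because a single group was described and no groups were compared. With 2 libraries the spread behind each level is itself imprecise, and levels near 0 rest on few reads, such as Shh (1 and 0 counts), Skor2 (1 and 0) and Gabra6 (8 and 0).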
